A study of Mus musculus with 2 samples.

Results

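Integrins are the receptors with which lymphocytes hold on to other cells and to the extracellular matrix. The 35 genes described here are the integrin alpha and beta subunits, the adhesion ligands Icam1, Icam2, Vcam1, Madcam1, Jaml, F11r and Cxadr, and the intracellular activators Tln1 and Fermt3. They were taken from a list of gene symbols and matched through the RefSeq accession of each array probe. Among the 20887 genes named on the arrays in this way were 33 of the 35, and 25 of the 33 were well above background on both arrays. Itga10, which encodes a collagen receptor subunit, and Itgae, which encodes the CD103 chain that binds E-cadherin on epithelial cells, had no matched probe and were not analysed here.

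The study measured gene expression in TCRαβ+CD8αα+ intraepithelial lymphocytes (IELs), T cells that live between the epithelial cells of the small intestine, with and without Rbpj, the DNA-binding factor of the Notch pathway. The cells were sorted from C57BL/6 mice of both sexes, aged 8–12 wk, after removal of CD4+ and TCRγδ+ cells, by a gate that also left out CD8β+ cells, and the methods state that the purity of the sort was checked. By the labels, Control mice were Rbpjf/f and the other mice were CD4-Cre Rbpjf/f (RFF4), in which Cre removes the floxed Rbpj segment in T cells that pass through a CD4-expressing stage. No Cre is named for the Control mice in the labels, whereas the study's text describes control mice that are Rbpj+/+ and carry CD4-Cre, so the alleles shared by both groups are not settled. Male and female mice and several isolations were pooled into 1 RNA sample per genotype, and each sample was hybridized to 1 Agilent array of 1 color. With 1 array per genotype there is no replicate check, and no test, standard error or p-value is given for any difference. In such bulk RNA, fewer cells of a type and less RNA per cell cannot be told apart.

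An integrin is a dimer of an alpha and a beta subunit, and the pairing decides what the cell can bind. Talin (Tln1) and kindlin-3 (Fermt3) attach to the tail of the beta subunit inside the cell and switch the dimer to its high-affinity form. In the gut, the pair of Itga4 and Itgb7 lets lymphocytes leave vessels that display Madcam1, the pair of Itgae and Itgb7 anchors IELs to epithelial E-cadherin, and the pair of Itgal and Itgb2, known as LFA-1, binds the ICAM proteins.

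Since the RBPJ protein recognizes the short core TGGGAA, the promoters of the genes were searched for it. RefSeq promoter windows (assembly GRCm38.p6) from 250 bases before to 50 bases after the start of the gene were at hand for 24 of the 35 genes, in 26 windows. TGGGAA or its reverse complement TTCCCA stood in 4 of the 26 windows (15.4%), against 8397 of 32851 windows (25.6%) of all genes. The 4 windows belong to F11r, Itga2b, Jaml and Madcam1, and the sequences below are shown because they are the places where the motif lies. All read 5′ to 3′ in the direction of the gene, and capitals mark the motif.
F11r, chr1:171437581-171437610, plus strand: ggatcgcgaggctgTTCCCAttggagttgc
Itga2b, chr11:102470035-102470064, minus strand: catggttatactTTCCCAggcagaaaggga
Jaml, chr9:45078933-45079182, plus strand: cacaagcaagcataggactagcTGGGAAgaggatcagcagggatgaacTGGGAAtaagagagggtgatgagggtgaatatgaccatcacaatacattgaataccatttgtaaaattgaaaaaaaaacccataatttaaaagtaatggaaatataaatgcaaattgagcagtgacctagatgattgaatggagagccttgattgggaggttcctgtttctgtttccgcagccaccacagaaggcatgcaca
Madcam1, chr10:79664309-79664558, plus strand: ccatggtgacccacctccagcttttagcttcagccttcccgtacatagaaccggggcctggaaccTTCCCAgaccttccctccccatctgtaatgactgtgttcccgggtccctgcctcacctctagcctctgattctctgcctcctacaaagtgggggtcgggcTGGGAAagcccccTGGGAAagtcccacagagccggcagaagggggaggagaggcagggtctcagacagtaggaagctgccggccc
In F11r the motif ran from base 35 to base 40 after the start, and in Itga2b it began at −169. Jaml held it at both −228 and −202, and Madcam1 at −185, −85 and −72, counted from the start of the gene to the first base of the motif. A match of these letters is a description of the window. Windows for Itgal, Itgb3 and Itgb4 were not in the table.

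Each array carried 59305 spots with gene probes, of which 33915 (57.2%) were well above background on the Control array and 29494 (49.7%) on the array labelled RFF4, with 0 saturated spots on either. The signal was dimmer on the array labelled RFF4, with a 75th percentile over gene probes of 7.63 on the log2 scale against 8.78 for Control. A level below means the log2 signal of a gene minus this percentile, and a difference is the level on the array labelled RFF4 minus that on the Control array. Levels of different genes come from different probes and are not set against each other. Spots of the same probe varied with an SD of 0.09 on each array, which gives 0.13 for a difference and covers technical error within an array only. Rbpj itself did not have a lower level on the array labelled RFF4 (2.17 on Control and 2.48 on RFF4, −0.78 as a difference under the spike-in scaling described below), and the files do not say whether its probes lie in the floxed segment. The Notch targets Heyl and Dtx1 were 14.0-fold and 12.4-fold lower there.

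Of the 25 genes with a difference, 3 were higher by over 2-fold on the array labelled RFF4 (Itgal, Itgb4 and F11r) and 1 was more than 2-fold lower (Itgb3). These are 12.0% and 4.0% of the 25, beside 12.1% and 5.21% of the 13519 genes with a difference on these arrays, and 11.4% and 4.66% of the 12955 that, like the 25, had both signals well above background. Neither count stands above the background. The median difference of the 25 genes was 0.24, against −0.03 for all genes. The difference was above 0 in 19 (76.0%), where 48.1% of all genes were above 0, and 16 (64.0%) lay within 0.5 of 0, where 58.6% of all genes did. For 11 genes it was smaller than 0.25, 2 spot SDs. These directions depend on the scaling: when the 8 spike-in control probes were set equal in place of the 75th percentile (spike-in scaling), 1 gene was more than 2-fold higher (Itgal) and 8 were more than 2-fold lower (Itgb3, Itgav, Itga1, Itga2, Itgb7, Icam1, Icam2 and Tln1), and the median of all genes moved by −1.06. These are 3.85% and 30.8% of the 26 genes that then had a difference (Itga2b was added), beside 1.46% and 55.7% of all 14210 genes with one, so the share of lower genes was below the background. Under that scaling, which differs little from using the scanner signals as they are, Itgal, Itgb4 and F11r were the 3 genes with a difference above 0.

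**Figure D1:**
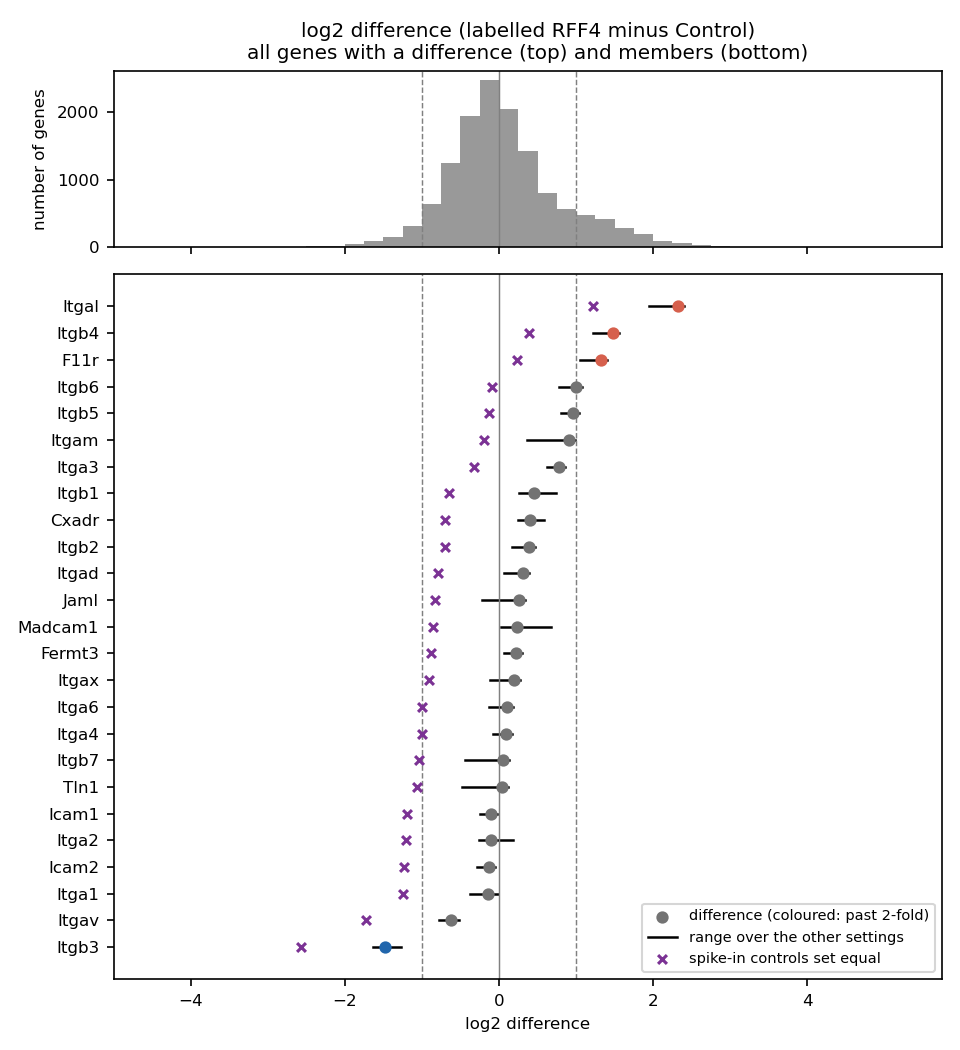
The lower panel plots the log2 difference (array labelled RFF4 minus Control) of each of the 25 genes as a point, with its range over the other processing settings as a line and its value under spike-in scaling as a cross, below a histogram of all 13519 genes. Dashed lines mark 2-fold; the points of Itgal, Itgb4 and F11r lie to the right of them and that of Itgb3 to the left, while of the crosses those of Itgal, Itgb4 and F11r stay above 0.

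Among the leukocyte integrins Itgal differed most. It encodes the alpha chain of LFA-1, the integrin that T cells use to bind ICAM proteins and form contacts with other cells. The scanner signal of Itgal (Entrez Gene 16408) was 325 on the Control array and 727 on the array labelled RFF4. Its level was −0.44 on Control and 1.88 on RFF4, which is a difference of 2.32 (4.99-fold higher) and rank 122 from the top of the 13519 genes. It was the single gene of the 25 past 4-fold, a size that 1.79% of all genes reached upward. None (0) of the 25 was more than 4-fold lower, where 0.584% of all genes were. A second Itgal probe, made for another transcript, went from 275 to 595 and gave 2.27, and over the processing settings other than the spike-in scaling the difference ran from 1.95 to 2.40. It was under 4-fold with normexp background correction (1.95) and under spike-in scaling (1.22).

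The beta chain that Itgal shares with the myeloid alpha chains differed less. Itgb2 had signals of 10111 and 5932 and levels of 4.52 on Control and 4.91 on RFF4, a difference of 0.39. Itgad, the alpha D chain, had signals of 8659 and 4808 and a difference of 0.31. Itgax, which encodes CD11c a marker of dendritic cells that activated T cells also carry, had signals of 23402 and 11987, levels of 5.73 and 5.92, and a difference of 0.19. Itgam, which encodes the CD11b chain of myeloid cells, went from 4.53 to 5.44, a difference of 0.91 that stayed under 2-fold. Its 3 probes did not move alike: the other probes, both far dimmer, gave 0.57 and −0.40, and the mean of the probes was 0.36.

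The gut-homing chains had nearly the same level on both arrays relative to the 75th percentile, and a lower signal under spike-in scaling (−1.04 for Itgb7). Itgb7, the beta chain that pairs with Itga4 and Itgae, had signals of 69522 and 32346 and levels of 7.30 on Control and 7.35 on RFF4, a difference of 0.05. Itga4 had levels of 3.23 and 3.32 and a difference of 0.10, with 0.11 from its second probe. Both differences were smaller than the spot SD, but that of Itgb7 was −0.44 with quantile normalization. Itga9, which pairs with Itgb1, was below background on both arrays. All 7 measured leukocyte subunits were above 0, with a median of 0.31, but this depended on the scaling. Itga4 and Itgb7 were below 0 with median scaling, Itgax and Itgb7 with quantile normalization, and all 3 with cyclic loess and normexp, where the median was 0.11 and 0.06. Under spike-in scaling Itgal alone was above 0.

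These differences stood beside others in genes of myeloid cells. Of 17 macrophage and dendritic cell markers, 13 had a difference, 11 of them higher by over 2-fold on the array labelled RFF4, with a median of 2.22. In 2 of the 13 (C1qa and C1qc) the difference is a bound, since they were below background on Control, and among the 11 above background on both arrays 9 were higher, with a median of 1.56 (1.19 with normexp background correction and 0.79 under spike-in scaling for the whole list). The summed level of the list went from 3.63 to 6.52. H2-Ab1, Cd74 and H2-Aa, which serve antigen presentation on MHC class II, had differences of 2.88, 3.35 and 2.93. The macrophage receptor Mrc1 and the dendritic cell receptor Flt3 were below background on both arrays. Of the 6 mast cell markers 4 were more than 2-fold higher and 1, Kit, lower (median 2.08). The summed level was 3.73 on Control, where it rests largely on Kit (3.53), and 3.80 on RFF4. On RFF4 Kit had a level of 2.06 and Mcpt1 one of 2.45. The mast cell proteases Mcpt1 and Mcpt2 were 5.33-fold and 6.23-fold higher. Of the 6 neutrophil markers 3 were higher (median 1.31), with summed levels of 0.57 and 1.68. The list of 10 T cell markers had a median of 0.30 (−0.79 under spike-in scaling) and a summed level of 10.42 on Control and 10.72 on RFF4, with levels of 8.37 and 8.65 for the kinase Lck. One of the 10 passed 2-fold, Cd2, itself an adhesion receptor of T cells, with levels of 3.17 and 5.38 and a difference of 2.21; it is named here after its value was seen. The part of other cell types in the differences of Itgal and Itgam was not tested.

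**Figure D2:**
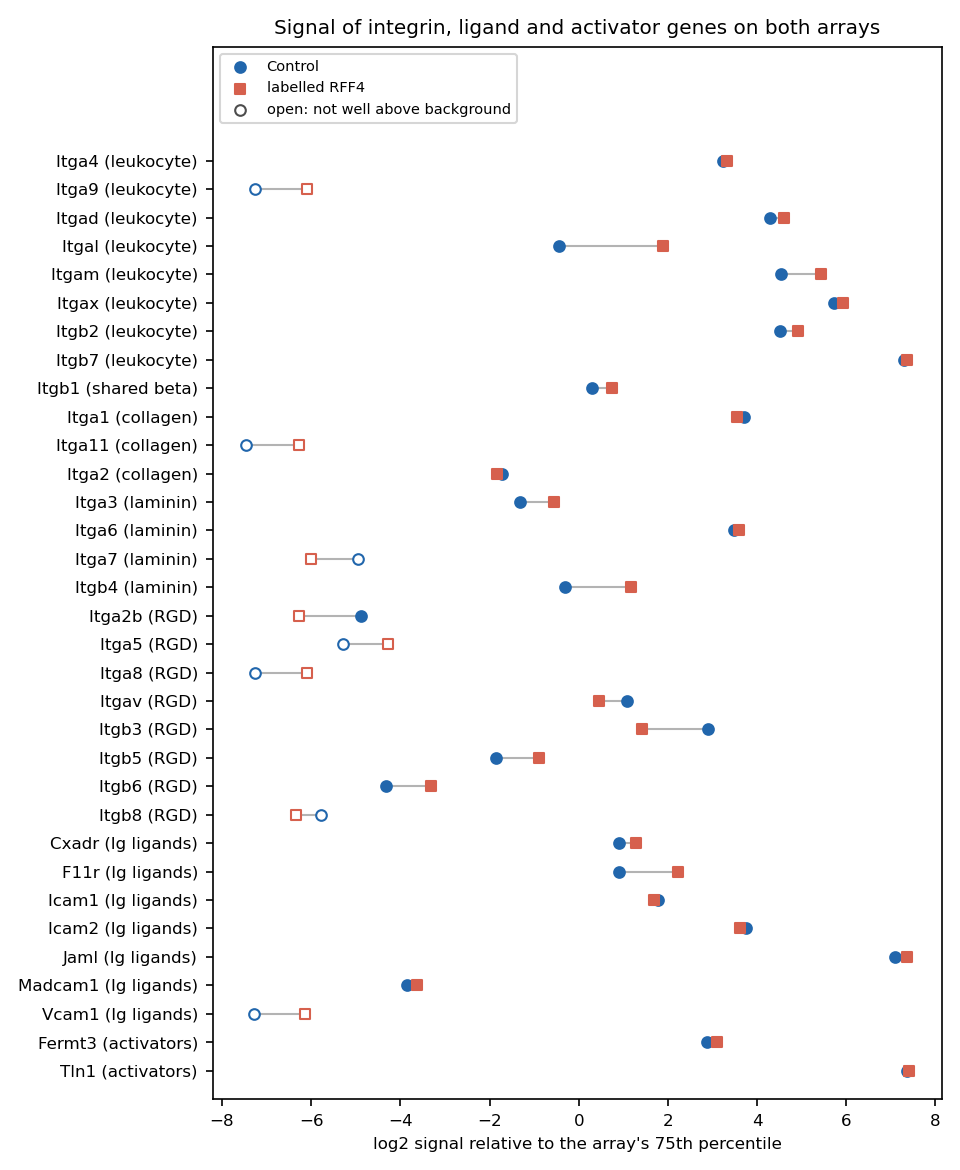
The log2 signal of 33 genes relative to the array's 75th percentile is plotted for the Control array (circles) and the array labelled RFF4 (squares), with open symbols where the gene was not well above background. Symbols lie close together for Itga4, Itgb7 and Tln1 and far apart for Itgal, Itgb4, F11r and Itgb3.

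Itgb1 is the beta chain that pairs with the largest number of alpha chains and so stands behind most binding to collagen, laminin and fibronectin. Its brighter probe had signals of 538 and 329 and levels of 0.29 on Control and 0.74 on RFF4, a difference of 0.45. Its dimmer probe gave 1.03, just past 2-fold. The collagen receptor chains Itga1 (levels of 3.71 and 3.56) and Itga2 (−1.73 and −1.84) had differences of −0.15 and −0.11, both within 2 spot SDs, and the second probe of Itga1 gave 0.11. Itga1 encodes CD49a, a chain carried by T cells that reside in tissue. Itga11 was below background on both arrays.

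The laminin receptors hold epithelial cells on their basement membrane, and here Itgb4 stood out. It encodes the beta chain of the hemidesmosome, a junction of epithelial cells. The signal of Itgb4 (Entrez Gene 192897) was 354 on Control and 444 on the array labelled RFF4, and its levels were −0.32 and 1.17, a difference of 1.48 (2.80-fold higher, rank 758). Its alpha partner Itga6 had levels of 3.49 and 3.59 and a difference of 0.10. Itga3, the other laminin chain found in epithelium, had levels of −1.32 and −0.55, a difference of 0.77 that did not pass 2-fold, and Itga7 was below background on both arrays. The 3 measured laminin receptor chains had a median of 0.77. Under spike-in scaling Itga3 stood at −0.32, while Itgb4 kept 0.39.

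The 15 epithelial markers moved in the same direction and by a similar size. Of these, 14 were higher by over 2-fold on the array labelled RFF4, with a median of 1.54 and a range from 0.39 to 1.85, and their summed level went from 8.12 to 9.74. Spike-in scaling lowers every gene by the same constant, and the median of the list was then 0.45. Lgals4, Krt19 and Fabp2, genes of the enterocyte lineage, were higher by 3.59-fold, 3.24-fold and 2.83-fold. Of the 15, 11 lay above Itgb4 and 12 above F11r. All 5 measured Paneth and goblet cell markers were also more than 2-fold higher (median 1.74, summed level 6.93 on Control and 8.71 on RFF4). The part of epithelial RNA in the differences of Itgb4, Itga3 and F11r was not tested.

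Of the chains that bind the RGD sequence of fibronectin, vitronectin and latent TGF-β, Itgb3 was the gene past 2-fold. It encodes the beta chain of the vitronectin receptor, where it pairs with Itgav, and of the platelet fibrinogen receptor, where it pairs with Itga2b. The signal of Itgb3 (Entrez Gene 16416) was 3311 on Control and 532 on the array labelled RFF4. Its level was 2.91 on Control and 1.43 on RFF4, a difference of −1.48 (2.79-fold lower), which is rank 241 from the bottom of the 13519 genes. The second Itgb3 probe had signals of 100 and 21.5 and gave −1.06, and the settings other than the spike-in scaling gave −1.63 to −1.27. Under spike-in scaling it was −2.57.

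Itgav, the alpha chain that pairs with Itgb3, also had a lower level. Its signals were 936 and 272 and its levels 1.09 on Control and 0.46 on RFF4, a difference of −0.63, with −0.41 from the second probe. Itgb5 and Itgb6, which also pair with Itgav and of which Itgb6 is known from epithelium as an activator of latent TGF-β, went the other way. The levels of Itgb5 were −1.85 and −0.89, a difference of 0.96. Itgb6 had signals of 22.2 and 19.9, close to background, and levels of −4.31 and −3.31, and its difference of 1.00 was just short of 2-fold. A second Itgb6 probe was below background on both arrays. Itgb5 and Itgb6 passed 2-fold when the 75th percentile was taken over the probes well above background on both arrays. Under spike-in scaling these 2 genes were just under 0, at −0.14 and −0.10.

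The remaining RGD chains gave no difference. Itga5, the fibronectin receptor chain, Itga8 and Itgb8 were below background on both arrays. Itga2b was well above background on the Control array alone, where its signal was 15.0 (2.56 on RFF4), too dim for a bound above 1-fold. Of 8 megakaryocyte and platelet markers 6 were below background on both arrays, Pf4, Gp1ba and Gp9 among them, and the summed level of the list was −0.96 on Control and −0.10 on RFF4. Gp1bb, a platelet glycoprotein gene, was more than 2-fold higher (1.38). The part of platelet RNA in the difference of Itgb3 was not tested.

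Setting the alpha against the beta chain of a dimer gives a comparison within each array in which the scaling by a constant drops out. Of 24 alpha and beta pairs, 15 had both chains measured. Itgal exceeded Itgb2 by 1.93 in its difference, which is a 3.81-fold change in the ratio of the signals. Itgb4 exceeded Itga6 by 1.39 (2.61-fold). Against Itgav, Itgb6 moved by 1.63 (3.09-fold), Itgb5 by 1.59 and Itgb1 by 1.08 (2.11-fold), all upward, so that in these 5 pairs the ratio changed by more than 2-fold. Scaling by a constant or a change of filter leaves these gaps as they are. With normexp background correction Itgav and Itgb1 dropped out at 0.89. The other 4 pairs stayed past 2-fold with normexp, quantile normalization, cyclic loess and the mean of all probes. Itgav and Itgb3 went in the same direction with a gap of 0.85. Itga4 and Itgb7 stayed together within 0.04 (0.57 after quantile normalization), Itgad and Itgb2 within 0.08, and Itgax and Itgb2 within 0.20, and in all 6 pairs had a gap under 0.5. Pairs that share a chain share its probe as well. In bulk RNA both chains of a pair need not come from the same cells, and this was not tested.

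**Figure D3:**
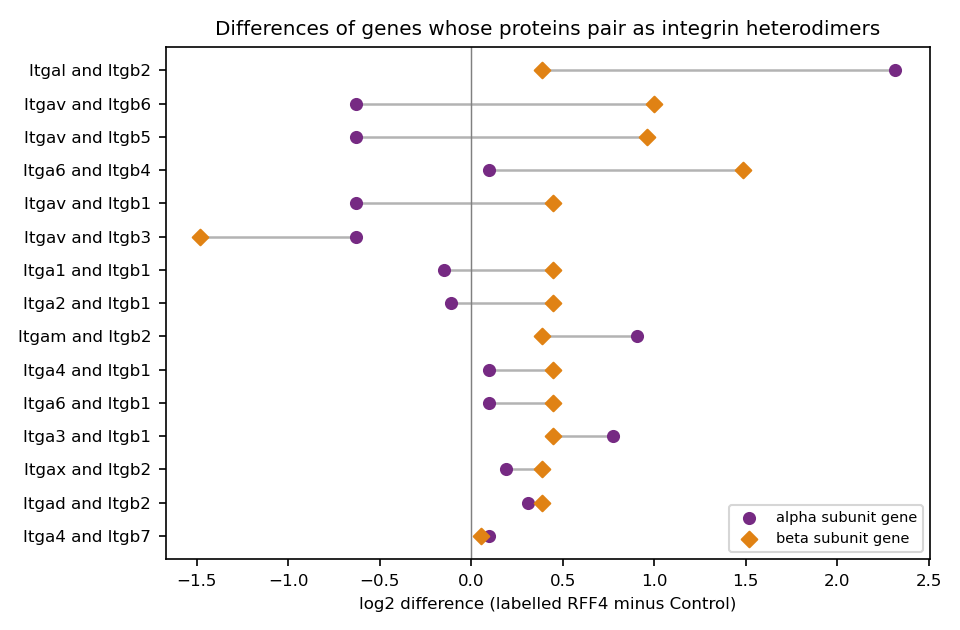
For each of 15 dimers the log2 difference (array labelled RFF4 minus Control) of the alpha subunit gene (circle) and the beta subunit gene (diamond) is joined by a line, whose length does not depend on a constant scaling. The line is longest for Itgal and Itgb2, at 1.93, and shortest for Itga4 and Itgb7, at 0.04.

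The ligands of the immunoglobulin superfamily were measured in the same sorted cells, not in the epithelium or the vessels that present them. F11r, which encodes the junctional adhesion molecule JAM-A of epithelial tight junctions and leukocytes and binds LFA-1, had the largest difference of the 6 measured. The signal of F11r (Entrez Gene 16456) was 828 on Control and 931 on the array labelled RFF4, and its levels of 0.91 and 2.24 gave a difference of 1.33 (2.51-fold higher, rank 1019). Its promoter window holds the motif once, in the F11r sequence above. Cxadr, the coxsackie and adenovirus receptor of epithelial junctions, had levels of 0.89 and 1.29 and a difference of 0.40, with 0.76 from a dimmer probe. Jaml, which encodes the T cell partner of Cxadr and carries the motif at 2 places in the sequence above, had signals of 60263 and 32488 and levels of 7.10 and 7.36, a difference of 0.27.

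The ICAM genes, whose products are bound by LFA-1, did not move with Itgal. Icam1 had levels of 1.79 on Control and 1.69 on RFF4, a difference of −0.10, and Icam2 levels of 3.76 and 3.63, a difference of −0.13, and both were over 2-fold lower under spike-in scaling. Madcam1, the vessel ligand of the gut-homing integrin, gave signals of 30.5 and 16.1, near background, and a difference of 0.24, within 2 spot SDs. Vcam1, which is displayed by activated endothelium and stroma, was below background on both arrays with both of its probes. Of 6 endothelial markers 4 were below background on both arrays; the summed level of the list went from 2.62 to 3.82, and its measured pair, Kdr and Pecam1, had differences of 1.32 and −1.05. The median of the 6 measured ligands was 0.25.

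With 75th percentile scaling the differences of both activators lay within 2 spot SDs, but that of Tln1 was −0.48 with quantile normalization. Tln1 had signals of 72808 and 33456, levels of 7.37 on Control and 7.40 on RFF4, and a difference of 0.04, with −0.04 from its second probe and −1.06 under spike-in scaling. Fermt3 had levels of 2.89 and 3.11 and a difference of 0.22. The wider adhesion machinery was examined in a list of 54 genes, of which 51 had a difference, 7 more than 2-fold higher and 1 lower, with a median of −0.03, beside 12.1% and 5.21% of all genes. The share of higher genes was near that background. The pathway from the T cell receptor to talin (inside-out signaling) held the lower gene among its 19: Rasgrp2, the exchange factor that loads Rap1, the GTPase that recruits talin to integrins, had levels of 2.42 and 0.71, a difference of −1.71 (3.28-fold lower). The other 18 of the list did not pass 2-fold, and the median was −0.15. Regulators at the beta tail gave 6 differences, 0 past 2-fold, and a median of −0.27.

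The focal adhesion genes, which act downstream of a bound integrin, held most of the higher ones. Of the 20 measured, 6 were higher by over 2-fold on the array labelled RFF4 and 0 lower, beside 12.1% and 5.21% of all genes. The median was 0.41. The 6 higher genes were the actin linkers Parva (1.65) and Vcl (1.48), the kinases Src (1.19) and Ptk2 (1.12), and the LIM proteins Lims2 (1.07) and Zyx (1.03). Apart from Zyx their Control levels were low, between −4.72 and −3.11, and under spike-in scaling the median of the 20 was −0.68. Among the 6 membrane partners the tetraspanin Cd81 was higher (1.39), with a median of 0.26. Of 31 matrix and other ligand genes 16 were below background on both arrays and 15 had a difference, with a median of −0.07. Fn1, which encodes fibronectin, was 4.47-fold higher and Thbs1 2.38-fold, with low Control levels of −4.08 and −4.99, while Col4a1 was at least 2.45-fold lower, being below background on the array labelled RFF4. Cdh1, the E-cadherin gene, had levels of 3.47 and 3.76 and a difference of 0.29. Of the 7 stromal markers, 4 had a difference, 2 of them more than 2-fold higher (median 1.17; summed level −0.51 on Control and 0.92 on RFF4), and their part in the matrix genes was not tested.

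**Figure D4:**
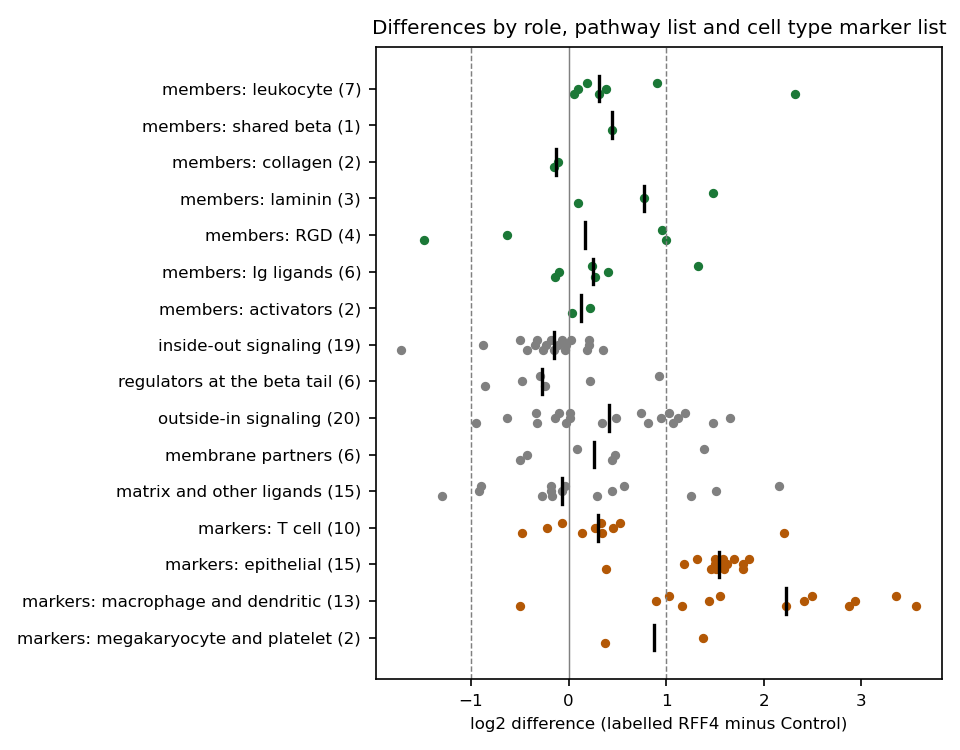
Each point is the log2 difference (array labelled RFF4 minus Control) of a gene with a difference, grouped by the role of the 25 genes (green), by list of adhesion machinery and ligands (gray) and by list of cell type markers (orange), with the median as a black bar, 2-fold as dashed lines and the number of genes, bounds included, in parentheses. Nearly the whole epithelial list lies past 2-fold, with a median of 1.54, while T cell markers have a median of 0.30 and inside-out signaling genes −0.15.

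Markers of the sort itself were examined as well. The 5 genes of the sorted cells had a median of 0.02, with levels of 6.45 and 6.37 for Cd8a, and 1 of the 5 was more than 2-fold higher, the granzyme gene Gzma (levels of 9.20 and 10.21, difference 1.01). Of the genes sorted against, Cd4 had a difference of 0.12, and Cd8b1 reached well above background on the Control array alone. Trdc and Tcrg-C1 had no matched probe. Of 9 B and plasma cell markers 6 had a difference, 5 of them more than 2-fold higher, with a median of 1.72 and summed levels of 4.94 and 6.09.

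How often a gene passed 2-fold also depended on its signal. When the genes with both signals well above background were put in order of mean signal and divided into 8 bins of equal size, 26.3% of the dimmest bin were more than 2-fold higher, with a median of 0.47; Itgb6 and Madcam1 lie there. The next bin, with Itgb5 and Itga2, had 19.3%. Of the 6 higher focal adhesion genes, Src, Lims2, Ptk2 and Vcl lie in the dimmest bin and Parva in the next. Itgal and Itgb4 lie in the fourth bin, where 10.5% were more than 2-fold higher and the median was −0.16. F11r and Itgb3 lie in the fifth, where 8.09% were higher, 5.99% were lower and the median was −0.13. Itgam, Itgax, Itgb2, Itgb7, Jaml and Tln1 lie in the brightest bin, with a median of 0.14.

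**Figure D5:**
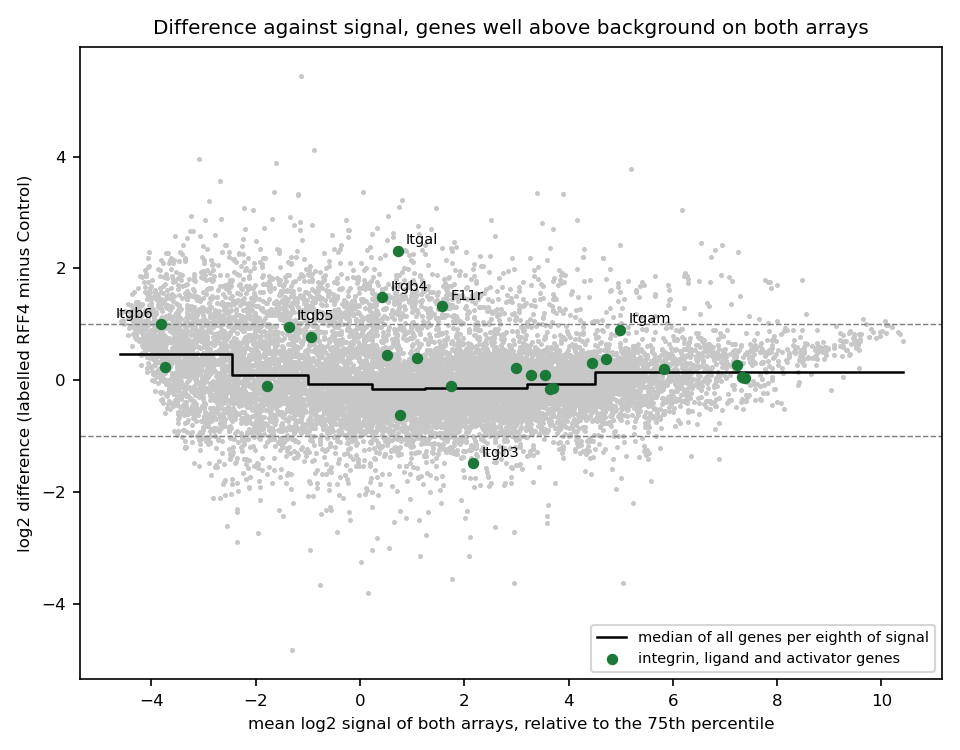
The log2 difference (array labelled RFF4 minus Control) of each gene with both signals well above background (gray) is plotted against its mean log2 signal relative to the 75th percentile, with the 25 genes in green, the median of each bin of signal as a line and 2-fold as dashed lines. Itgal, Itgb4 and F11r lie above and Itgb3 below the dashed lines in the middle range of signal, while the median line is highest, at 0.47, in the dimmest bin.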

How the data were processed

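RNA of sorted TCRαβ+CD8αα+ IELs was measured on 2 arrays, 1 per genotype, grouped by the genotype in the labels. Per the file headers, the deposited intensity of a spot is its signal less background, as computed by Agilent Feature Extraction 10.7.1.1, on a linear scale and not yet normalized between arrays. The authors also deposited a table of log2 values centered on the mean of both arrays, whose settings are not given in the sources used here. It has 62976 lines, of which 924 repeat a probe, 6231 are blank and 55821 were used. Its differences are those of the scanner signals shifted by 1.16, to within 0.001.

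Here, log2 signals were scaled to the 75th percentile of 55679 gene probes on each array (control and outlier spots left out, spots of the same probe averaged). A probe was well above background if 50% or more of its spots were. An accession of RefSeq was given for 29150 probes, and 27509 of these had a symbol in assembly GRCm38.p6. The brightest probe by mean log2 signal stood for its gene. For a gene below background on 1 array the difference is a bound, against its own signal or the dimmest one well above background there (levels of −5.30 on Control and −4.10 on RFF4), whichever was higher. Called means more than 2-fold; genes are not replicates, and no test was run.

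All 35 genes may be named, with list genes past 2-fold, Cdh1, up to 3 markers per list (chosen by signal, on the array labelled RFF4 for other cell types), Rbpj, Heyl and Dtx1. Further genes named to describe a list (Cd8a, Cd4, Cd8b1, Trdc, Tcrg-C1, Cd2, Mrc1, Flt3, C1qa, C1qc, Pf4, Gp1ba, Gp9) were chosen after their values were seen. The results of some list genes are not reported here. The genes and lists were chosen with earlier results of these data known. The 12 alternatives concerned scaling, background correction, the authors' table, the probe of a gene, the filter and outlier spots. The calculations were tested on simulated data and used Python 3.11.15, numpy 2.4.6, pandas 2.3.3, matplotlib 3.10.9, R 4.3.3 and limma 3.58.1 (quantile, cyclic loess and normexp with an offset of 50).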

Additional observations from a re-analysis of the deposited data

How the results depend on the processing

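Of the 25 genes, Itgal and Itgb3 stayed past 2-fold in the same direction under all 12 alternatives. Itgb4 and F11r did so under all but the spike-in scaling. The settings for the filter, bounds and outlier spots and the authors' table hardly moved these 4 values and so add little. The number more than 2-fold higher was 3 and became 5 with the 75th percentile over probes well above background on both arrays, 8 with no filter and no bound, and 1 under spike-in scaling (8 control probes set equal). The number lower was 1 and became 8 with the spike-in controls, 3 with no filter and 2 with plain ratios without bounds. The genes added without a filter were below background on at least 1 array. The median difference of the 25 genes, 0.24, became 0.083 with median scaling, 0.029 with cyclic loess and −0.84 with the spike-in controls, there over 26 genes (−0.86 over the 25). These scalings moved the median of all genes by −0.15, −0.10 and −1.06. Over all genes, 207 were more than 2-fold higher and 7909 lower with the spike-in controls, in place of 1639 and 705, and 6222 were higher with no filter. Past 4-fold, 242 and 79 genes became 57 and 34 with normexp and 29 and 906 with the spike-in controls. Without a filter they were 682 and 158, and with plain ratios 158 were lower. Itga2, Itga4, Itga6, Itgax, Itgb7, Jaml and Tln1 changed sign under at least 1 setting other than the spike-in scaling. No paired analysis was possible because each genotype has 1 array, and for the same reason no array could be left out. Adding probes by the gene name in the file was not run, since the files used here hold accessions in place of gene names. Dim genes such as Itgb6 and Madcam1 are limited by signal over background.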
